A study of Mus musculus with 4 samples.

Results

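Solute carriers are the membrane proteins that move sugars, amino acids, nucleosides, metals, ions and vitamins into cells and between their compartments, and their gene symbols begin with Slc and a family number. Levels are in FPKM, sequenced fragments divided by transcript length in kilobases and by a scale set for each library. The genes described here were the symbols starting with Slc and a digit that reached 2 FPKM in at least 1 of 4 macrophage libraries. There were 378 such symbols in the tables, of which 210 stayed below the limit and 72 of those were listed at 0 everywhere. Of the 168 above it, 15 were left out by name, among them the glucose carrier Slc2a1, the cystine carrier Slc7a11, the arginine carrier Slc7a2 and the iron exporter Slc40a1, which leaves 153 members. The counts below are therefore not counts of the whole family. Just inside the limit lay Slc25a35, Slc17a9 and Slc25a15 at up to 2.06, 2.21 and 2.22 FPKM, and just outside it Slc35e3, Slc25a40 and Slc6a13 at up to 1.67, 1.66 and 1.61. The members were thus chosen by their symbol and their highest FPKM, so their levels are a description.

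The cells were macrophages grown with M-CSF, the growth factor that drives this lineage, from the marrow of 7 weeks old C57BL/6 mice. Wild type (WT) cells and Sema6D-/- cells were each taken unstimulated or after 4 h with 100 ng/ml of bacterial lipopolysaccharide (LPS), a trigger of macrophage activation, which makes 4 groups. With 1 library a group, the differences below have no replicate check and could not be tested across libraries. The labels do not say how the Sema6D allele was made, or how many animals gave each library.

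In a macrophage, carriers in the plasma membrane bring in fuel and building blocks, carriers of lysosomes and endosomes release what has been digested, and carriers of the inner mitochondrial membrane link the metabolism of the cytosol with that of the matrix. Zinc carriers fall into an exporting family, Slc30, and an importing family, Slc39, which move the metal out of and into the cytosol. Activated macrophages are known to change how they handle sugars, glutamine, zinc, copper and iron.

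Libraries held an estimated 17.3 to 23.6 M fragments each, with 9682 to 10057 genes at or above 1 FPKM. All 8 macrophage markers exceeded 1 FPKM in every library, while those of lymphocytes, red cells, mast cells and stroma were low, apart from Pf4 (79.5 to 105 FPKM), Pecam1 (1.15 to 4.34), Cd4 (1.85 to 2.68) and Prss34 (0.220 to 1.56), beside Itga2b (0.340 to 1.23). Dendritic cell markers summed to 1.55 to 8.30 FPKM and were higher with LPS in both genotypes. Sema6d itself measured 0.304 and 0.219 FPKM in WT without and with LPS, and 0.563 and 0.592 for the libraries labelled Sema6D-/-, which goes against the label, so the direction of every genotype comparison rests on the labels alone. Xist was at 22.3 and 21.4 FPKM for WT and at 0.0333 and 0.0306 for the libraries labelled Sema6D-/-, so sex and genotype cannot be told apart. Neutrophil markers also followed the genotype. The 8 of them summed to 828 and 1272 FPKM for WT and to 234 and 359.8 FPKM for the libraries labelled Sema6D-/-, with S100a8 at 409 and 627 against 103 and 166, and the defining marker Ly6g at 0.275 to 0.450 in all 4. Macrophage markers differed between genotypes in both directions, with Itgam at 404 and 538 FPKM for WT against 225 and 265. Cd14 was at 257 and 686 FPKM for WT against 565 and 1421. The part of these neutrophil and macrophage markers in the genotype differences below was not tested. In such bulk libraries, fewer cells of a type and less RNA per cell cannot be told apart.

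Most solute carriers were expressed at a moderate level, and a few at a very high one. The median member measured 11.16 FPKM in WT without LPS, 10.31 in WT with LPS, and 11.59 and 11.43 FPKM for the libraries labelled Sema6D-/- without and with LPS. Only 26 members reached 50 FPKM and 13 reached 100. The 10 highest members held 40.9% of the summed level of all members in WT without LPS and 48% with LPS, and 38.7% and 54.1% in the libraries labelled Sema6D-/-. The highest was Slc15a3, which carries histidine and small peptides out of lysosomes and endosomes, at 286 FPKM in WT without LPS, 672 in WT with LPS, and 241 and 801 FPKM for the libraries labelled Sema6D-/- without and with LPS. Slc6a6, the taurine carrier, measured 265, 259.9, 227 and 263 FPKM in the same order, below Slc15a3 in every library and below Slc2a6 in the library labelled Sema6D-/- with LPS. Slc7a8, an exchanger of neutral amino acids, measured 115 and 200.4 FPKM for WT and 157 and 255 for the libraries labelled Sema6D-/-. Slc48a1, which carries heme out of phagolysosomes, measured 151 and 126 FPKM for WT and 128 and 82.7 for the libraries labelled Sema6D-/-. The mitochondrial phosphate carrier Slc25a3 (127 to 173 FPKM) and the ADP/ATP carriers Slc25a4 (93.4 to 102 FPKM) and Slc25a5 (80.4 to 127 FPKM) were also highly expressed. Slc25a5 has many near-identical copies in the genome, so its level is uncertain.

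**Figure D1:**
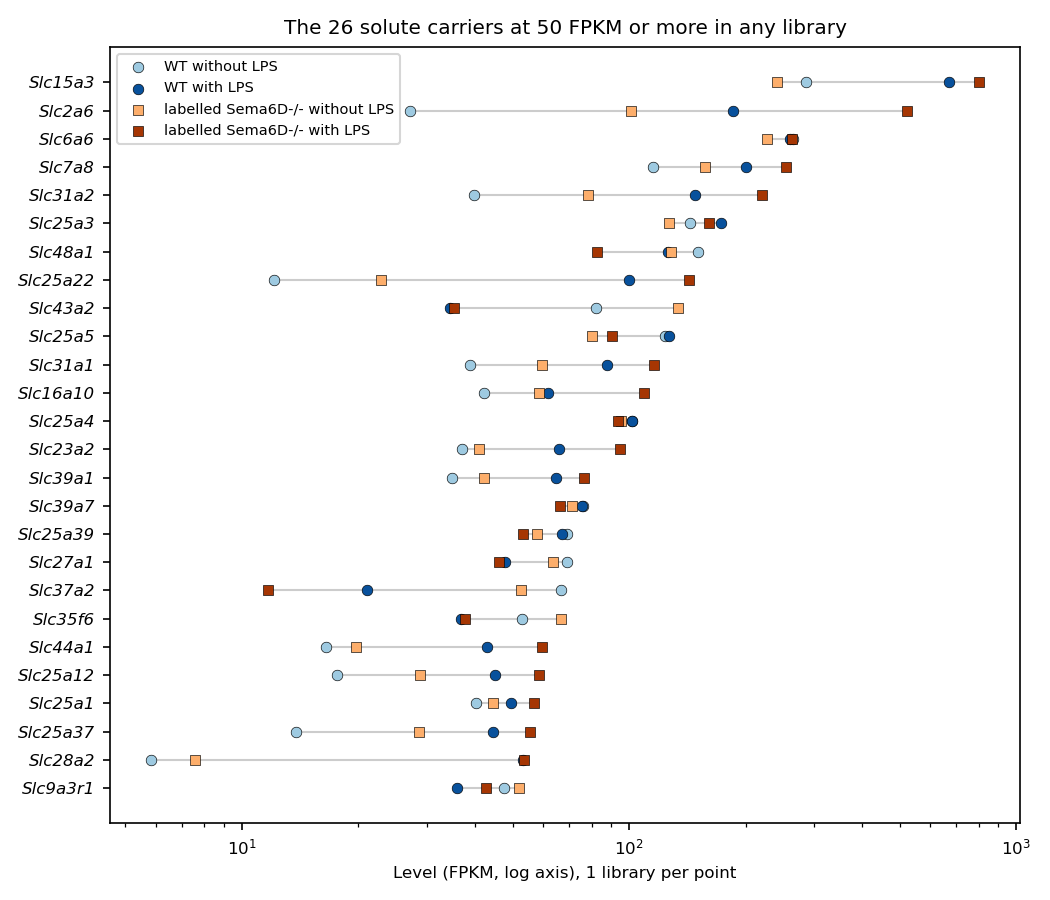
Level of each of the 26 members that reached 50 FPKM, in FPKM on a log axis, with 1 point per library (circles WT, squares labelled Sema6D-/-, dark with LPS). Slc2a6 spans 27.1 to 521 FPKM, while Slc25a4 stays between 93.4 and 102.

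In WT cells, 14 members were at least 2-fold higher with LPS and 10 at least 2-fold lower. Of all 9787 genes that pass the same limit, 11.2% were higher and 5.01% lower (10.9% and 4.60% of the 9481 that code for protein), and the members' shares of 9.15% and 6.54% lay near these. Here and below, a log2 ratio was taken after adding 1 FPKM to both levels, except where square brackets follow. Those ratios are without the added 1, and the brackets hold a 95% interval for counting error alone. In the libraries labelled Sema6D-/- 16 members were higher with LPS (10.5%, against 14.5% of all genes and 14.3% of protein-coding ones) and 18 lower (11.8%, against 8.95% and 8.62%). The median ratio of the members was -0.11 in WT and -0.15 for the libraries labelled Sema6D-/-, against 0.02 and 0.03 for all genes. The split hung on scaling. After each library was rescaled to a common FPKM total, which shifted the median gene by -0.51 in WT and -0.72 in the other genotype, it was 7 higher and 34 lower in WT and 6 and 64 for the libraries labelled Sema6D-/-. Centred on the median gene it was 14 and 13, and 12 and 24. The share of all genes was not counted for these rescaled and centred splits, so they are not compared with the background.

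A common set of carriers passed 2-fold in both genotypes. It held 10 members higher with LPS (Slc2a6, Slc4a7, Slc15a3, Slc25a22, Slc25a28, Slc28a2, Slc31a2, Slc39a14, Slc44a1 and Slc49a4) and 8 lower (Slc16a6, Slc26a11, Slc35e4, Slc36a1, Slc37a2, Slc43a2, Slc45a4 and Slc66a1), and none passed it in opposite directions. On the same basis, 990 of all 9787 genes passed on the higher side and 400 on the lower, beside 10 and 8 of 153 members. Passes in opposite directions were not counted for all genes. Among the 10, the ratio was larger in the libraries labelled Sema6D-/- for 4 (40%, against 65.1% of the 990 genes higher in both genotypes). Among the 8, the decrease was larger there for 6 (75.0%, against 85.5% of 400 genes). At the other end, 107 members (69.9%) stayed under 2-fold in both LPS and both genotype comparisons, as did 71.8% of all genes.

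**Figure D2:**
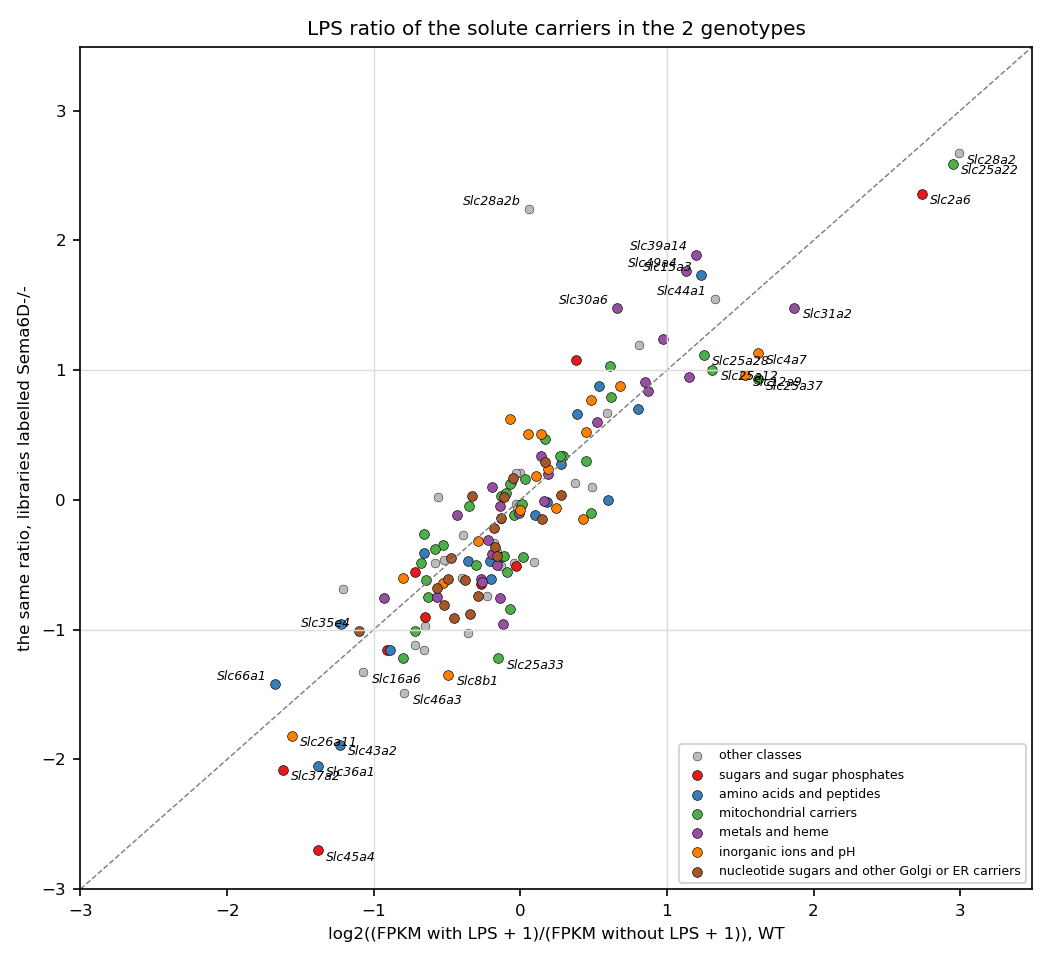
Log2 ratio of the level with LPS to that without, with 1 FPKM added, in WT (x axis) and in the libraries labelled Sema6D-/- (y axis), 1 point per member, coloured by substrate class, with grey lines at 2-fold and a dashed line of equality. Slc28a2, Slc25a22 and Slc2a6 lie farthest up in both genotypes and Slc45a4 (-1.38 and -2.70) farthest down on the y axis.

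The carriers most strongly higher with LPS came from different substrate classes. Slc28a2, a sodium-driven carrier that brings purine nucleosides into the cell, measured 5.83 FPKM in WT without LPS and 53.1 with LPS, and 7.58 and 53.5 FPKM for the libraries labelled Sema6D-/-. Its log2 ratios were 3.19 [3.07, 3.31] and 2.82 [2.70, 2.95], and both LPS libraries lay far above both unstimulated ones. Slc25a22, which brings glutamate into mitochondria, went from 12.1 to 99.9 FPKM for WT and from 22.9 to 143 FPKM for the libraries labelled Sema6D-/-, with ratios of 3.05 [2.95, 3.16] and 2.64 [2.55, 2.73]. Slc2a6, a hexose carrier of lysosomes (also called GLUT6), measured 27.1 and 186 FPKM for WT and 101 and 521 FPKM for the libraries labelled Sema6D-/-. Its LPS ratios were 2.78 [2.70, 2.86] and 2.37 [2.32, 2.42]. It was the only one of 9 sugar carriers at least 2-fold higher with LPS in both genotypes, while Slc37a3 had 0.45 [0.28, 0.63] in WT and 1.26 [1.07, 1.45] in the other genotype, and with LPS it was the second most abundant member in the libraries labelled Sema6D-/-.

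Slc31a2, which is related to the copper importer and takes part in handling of copper in endosomes, measured 39.7 and 148 FPKM for WT and 78.3 and 220.3 FPKM in the other genotype. Slc4a7, which brings in sodium and bicarbonate, measured 10.6 and 34.7 FPKM for WT and 15.6 and 35.3 FPKM in the other genotype. Slc44a1, the main choline carrier of many cells, measured 16.5 and 43, then 19.7 and 59.6 FPKM in the same order. After rescaling to a common total, Slc28a2, Slc25a22 and Slc2a6 stayed above 2-fold in both genotypes, while Slc31a2 (0.73) and Slc4a7 (0.41) were below it in the libraries labelled Sema6D-/- and Slc44a1 (0.82 and 0.82) in both. Centring brought Slc4a7 to 0.98 there.

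The carriers most strongly lower with LPS also came from different substrate classes. Slc37a2, a sugar phosphate carrier of the endoplasmic reticulum, measured 66.8 FPKM in WT without LPS, 21 with LPS, and 52.6 and 11.7 FPKM for the libraries labelled Sema6D-/-, with ratios of -1.67 [-1.73, -1.61] and -2.17 [-2.26, -2.08]. Slc36a1, a proton-driven amino acid carrier of lysosomes, measured 13.9 and 4.73 FPKM for WT and 18.3 and 3.65 for the libraries labelled Sema6D-/-. Slc66a1, which lets cationic amino acids leave lysosomes, measured 15.5 and 4.18 FPKM for WT and 9.65 and 2.97 for the libraries labelled Sema6D-/-. Slc43a2, a carrier of branched-chain and aromatic amino acids, was high without LPS (82.1 FPKM for WT and 134 in the other genotype) and closely equal with LPS (34.4 and 35.4 FPKM). Slc45a4 measured 9.13 and 2.88 FPKM for WT and 13 and 1.17 for the libraries labelled Sema6D-/-, with ratios of -1.66 [-1.82, -1.51] and -3.48 [-3.75, -3.24]. Slc26a11, an anion carrier, measured 5.25 and 1.11 FPKM for WT and 4.34 and 0.507 FPKM for the libraries labelled Sema6D-/-, where its last value rested on 21 fragments. Each of these 6 kept its 2-fold decrease under either scaling.

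Promoters are shown for Slc28a2, Slc2a6 and Slc31a2, the members with the highest mean LPS ratio among those with 1 promoter window in the table used, for Slc37a2 and Slc36a1 as the lowest on the same basis, and for Slc28a2b, the neighbouring copy of Slc28a2 described below. The windows span 300 bases around the start site, are from RefSeq on GRCm38.p6 and are given 5′ to 3′ on the gene's strand. Capitals mark matches on either strand to the κB consensus of NF-kB, the core of the interferon-stimulated response element (ISRE), the cAMP element TGACGTCA, the E-box CACGTG and the metal element cores TGCACNC and TGCGCNC. Slc28a2 lies on the plus strand at chr2:122426185-122426484, Slc28a2b on the plus strand at chr2:122484691-122484990, Slc2a6 on the minus strand at chr2:27027949-27028248, Slc31a2 on the plus strand at chr4:62286179-62286478, Slc37a2 on the minus strand at chr9:37255689-37255988 and Slc36a1 on the plus strand at chr11:55204090-55204389.
Slc28a2: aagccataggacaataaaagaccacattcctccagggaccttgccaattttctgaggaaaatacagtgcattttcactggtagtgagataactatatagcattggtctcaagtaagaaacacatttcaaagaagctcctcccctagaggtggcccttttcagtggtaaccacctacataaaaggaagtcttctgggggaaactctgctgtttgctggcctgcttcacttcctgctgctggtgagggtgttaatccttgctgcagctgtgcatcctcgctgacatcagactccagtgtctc
Slc28a2b: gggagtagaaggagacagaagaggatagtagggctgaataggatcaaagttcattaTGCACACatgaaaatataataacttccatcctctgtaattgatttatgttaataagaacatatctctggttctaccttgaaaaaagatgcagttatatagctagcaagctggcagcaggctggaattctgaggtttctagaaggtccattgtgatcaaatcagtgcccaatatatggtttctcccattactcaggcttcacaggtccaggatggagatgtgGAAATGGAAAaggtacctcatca
Slc2a6: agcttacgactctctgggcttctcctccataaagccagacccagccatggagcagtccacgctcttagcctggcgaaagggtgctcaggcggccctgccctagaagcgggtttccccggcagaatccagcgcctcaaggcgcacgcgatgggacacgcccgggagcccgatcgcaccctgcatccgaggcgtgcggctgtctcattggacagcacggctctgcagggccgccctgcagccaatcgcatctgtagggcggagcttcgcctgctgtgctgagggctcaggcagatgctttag
Slc31a2: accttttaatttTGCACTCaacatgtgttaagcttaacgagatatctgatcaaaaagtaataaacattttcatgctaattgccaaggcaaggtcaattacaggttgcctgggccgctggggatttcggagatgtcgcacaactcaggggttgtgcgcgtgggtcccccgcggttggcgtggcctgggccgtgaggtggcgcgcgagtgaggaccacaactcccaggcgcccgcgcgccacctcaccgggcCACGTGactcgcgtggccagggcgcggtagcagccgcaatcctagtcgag
Slc37a2: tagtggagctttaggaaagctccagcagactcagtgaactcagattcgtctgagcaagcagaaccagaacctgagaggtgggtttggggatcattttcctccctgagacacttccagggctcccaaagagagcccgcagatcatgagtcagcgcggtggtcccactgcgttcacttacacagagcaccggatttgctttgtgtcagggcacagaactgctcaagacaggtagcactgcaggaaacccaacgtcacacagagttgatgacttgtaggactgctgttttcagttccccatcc
Slc36a1: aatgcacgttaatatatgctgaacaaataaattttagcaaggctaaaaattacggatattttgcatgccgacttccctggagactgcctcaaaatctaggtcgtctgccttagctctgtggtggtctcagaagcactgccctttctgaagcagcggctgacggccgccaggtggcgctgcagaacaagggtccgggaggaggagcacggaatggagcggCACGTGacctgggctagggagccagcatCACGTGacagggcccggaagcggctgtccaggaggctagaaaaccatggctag

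These letters were absent from the windows of Slc28a2, Slc2a6 and Slc37a2. Slc36a1 held the E-box at 2 places and Slc31a2 at 1, beside a metal element core. The Slc28a2b window held the ISRE core and a metal element core. A promoter window was found for 116 of the 153 members. The E-box occurred in 19.8% of these, against 12.7% of 7856 genes at the level limit and 8.1% of all 27025 genes with a window. The κB consensus occurred in 13.8% of members, 12.3% of genes at the level limit and 9.6% of all genes, and in 1 of 9 members higher with LPS in both genotypes (Slc49a4). The ISRE core occurred in 2.6%, 4.2% and 4.0%, and among those 9 in Slc25a22 alone. The cAMP element occurred in 2.6%, 3.8% and 2.0%, and the metal element cores in 21.6%, 14.5% and 14.2% (TGCACNC) and in 32.8%, 30.8% and 17% (TGCGCNC).

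By substrate class, the median LPS ratios of classes with 2 or more members lay between -0.65 and 0.40. Of 9 sugar and sugar phosphate carriers, Slc2a6 was higher with LPS in WT and Slc37a2 and Slc45a4 lower, with a class median of -0.65. In the libraries labelled Sema6D-/- 2 were higher and 3 lower, again with a median of -0.65, and family Slc37 passed 2-fold in both directions there. Slc37a3 was higher (4.15 to 9.91 FPKM, 1.26 [1.07, 1.45]), and Slc37a4, which brings glucose 6-phosphate into the endoplasmic reticulum, was lower (4.70 to 1.55 FPKM, -1.60 [-2.07, -1.15]). The call on Slc37a3 ended after centring (0.93) and after rescaling (0.43). The summed level of the class was 146 and 243 FPKM for WT and 212 and 568 FPKM for the libraries labelled Sema6D-/-, of which Slc2a6 was the largest part in both LPS libraries.

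Of 18 amino acid and peptide carriers, 1 was higher and 4 were lower with LPS in each genotype, with medians of -0.17 and -0.43. The higher one was Slc15a3 in both, at 1.23 [1.21, 1.26] and 1.74 [1.70, 1.77], which rescaling to a common total brought to 0.70 and 0.98. Its relative Slc15a4, which carries the same substrates and is needed for signalling by endosomal Toll-like receptors, measured 23.6 and 20.4 FPKM for WT and 35.1 and 22.6 FPKM for the libraries labelled Sema6D-/-. The 4 lower ones in WT were Slc36a1, Slc38a2, Slc43a2 and Slc66a1. Slc38a2, a sodium-coupled carrier of small neutral amino acids that is induced by amino acid shortage, measured 32.4 and 13.3 FPKM for WT and 30.7 and 15.3 for the libraries labelled Sema6D-/-, where its ratio of -0.96 was just short of 2-fold. There the fourth was Slc7a6, an exchanger of cationic for neutral amino acids (7.13 to 2.64 FPKM). The glutamine carrier Slc1a5 had ratios of -0.13 and -0.44, and the cationic amino acid carrier Slc7a1 0.39 and 0.66.

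Mitochondrial carriers, all of family Slc25 and 32 in number, had medians of -0.07 in both genotypes. In WT 4 were higher with LPS and none was lower at 2-fold. Beside Slc25a22 these were Slc25a12, which exchanges aspartate for glutamate (17.6 to 45 FPKM), and the mitochondrial iron importers Slc25a28 (11.9 to 29.6 FPKM) and Slc25a37 (13.8 to 44.5 FPKM). In the libraries labelled Sema6D-/- Slc25a22, Slc25a28 (13.6 to 30.8 FPKM) and the ATP-Mg/phosphate carrier Slc25a25 (7.52 to 16.4 FPKM) were higher. Slc25a12 (28.9 to 58.6 FPKM) and Slc25a37 (28.7 to 55.6 FPKM) were there just short, with ratios of 1.00 and 0.93. Lower were Slc25a30 (10.4 to 3.92 FPKM, -1.41 [-1.64, -1.20]) and the pyrimidine nucleotide carriers Slc25a33 (4.42 to 1.33 FPKM, -1.73 [-2.30, -1.22]) and Slc25a36 (7.21 to 3.07 FPKM, -1.23 [-1.44, -1.03]). For Slc25a33 the ratio in WT was -0.20 [-0.61, 0.18]. The citrate carrier Slc25a1, which supplies the cytosol with citrate, measured 40.2 and 49.5 FPKM for WT and 44.5 and 56.7 FPKM for the libraries labelled Sema6D-/-. Rescaling to a common total ended the calls on Slc25a28 in both genotypes (0.75 and 0.40), on Slc25a12 in WT (0.80) and on Slc25a25 (0.34), and centring those on Slc25a28 (0.97) and Slc25a25 (0.88) in the libraries labelled Sema6D-/-.

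Among the 25 carriers of metals and heme, 4 were higher with LPS in WT and 5 for the libraries labelled Sema6D-/-, and none was 2-fold lower in either with 1 FPKM added. Both members of the copper family were higher in WT. Slc31a1, which brings copper into the cell, measured 38.8 and 87.6 FPKM for WT and 59.5 and 116 for the libraries labelled Sema6D-/-, where its ratio was 0.95, and rescaling brought the WT ratio from 1.15 to 0.63. Of the 11 zinc importers, 1 was 2-fold higher. That was Slc39a14, which also imports manganese and iron, at 9 and 22 FPKM for WT and 7.23 and 29.4 for the libraries labelled Sema6D-/-. Rescaling to a common total brought its WT ratio to 0.71. Slc39a13, a zinc carrier of the secretory pathway, was at -0.12 in WT and just short of 2-fold lower in the libraries labelled Sema6D-/-, at -0.96, or -1.03 [-1.20, -0.85] without the added 1. It passed 2-fold there with 0.1 added (-1.02), centred (-1.12) and rescaled (-1.67). Slc39a10 measured 4.10 and 2.03 FPKM in the libraries labelled Sema6D-/- (-0.75). The zinc exporters of family Slc30 had medians of 0.59 and 0.75 in WT and the other genotype. Those values depended on scaling, and after rescaling to a common total Slc30a9 had -0.35 and -0.38 in place of 0.14 and 0.34. Slc30a1, which exports zinc through the plasma membrane, measured 12.7 and 25.9 FPKM in WT (0.97) and 10.7 and 26.6 for the libraries labelled Sema6D-/- (1.24, or 0.53 rescaled). Slc30a6, which loads zinc into the secretory pathway together with Slc30a5, measured 5.42 and 9.16 FPKM for WT and 5.57 and 17.4 for the libraries labelled Sema6D-/- (1.48, or 0.80 rescaled). Slc30a5 went the other way, from 25.4 to 12.8 FPKM in WT (-0.93) and from 21.7 to 12.4 for the libraries labelled Sema6D-/- (-0.76). Slc49a4, a lysosomal membrane protein, measured 5.01 and 12.2 FPKM for WT and 4.82 and 18.7 for the libraries labelled Sema6D-/-, with a WT ratio of 1.13, or 0.67 rescaled. It enters the counts of this class in both genotypes by its family number alone.

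**Figure D3:**
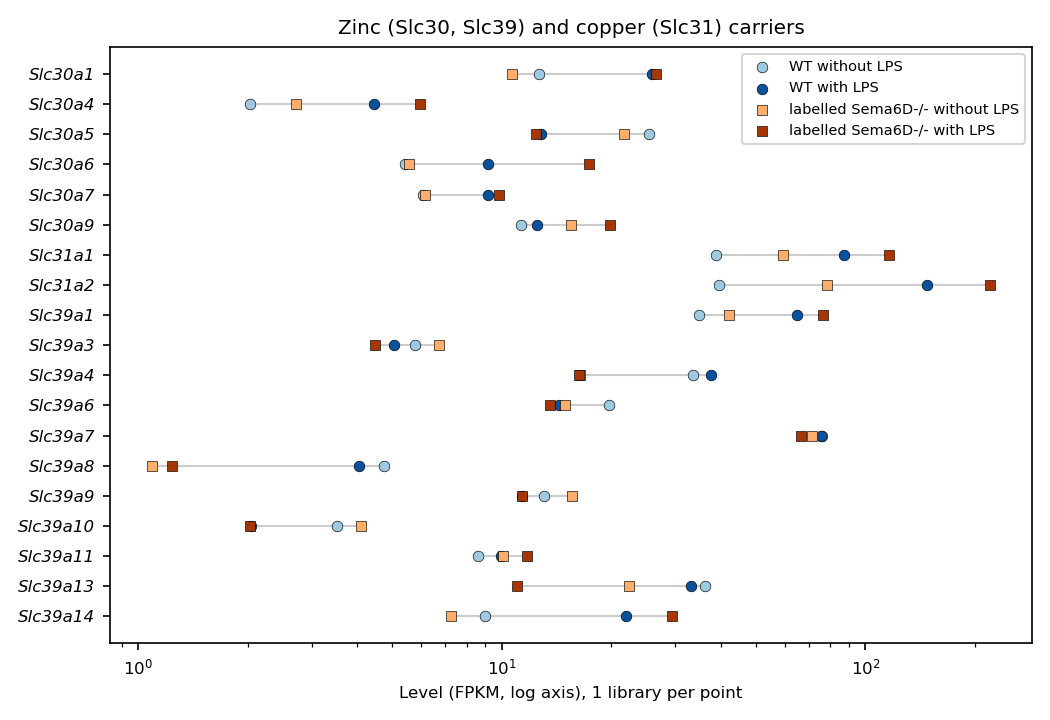
Level of the zinc exporters (Slc30), copper carriers (Slc31) and zinc importers (Slc39) in each library, in FPKM on a log axis. Slc39a8 spans 1.09 to 4.75 FPKM, with its lowest points in the libraries labelled Sema6D-/-, and Slc31a2 spans 39.7 to 220.3 FPKM.

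Of 18 carriers of inorganic ions and protons, Slc4a7 and Slc12a9 (8.17 to 25.4 FPKM) were higher and Slc26a11 lower with LPS in WT. In the libraries labelled Sema6D-/- Slc4a7 was higher, Slc12a9 measured 12 and 24.3 FPKM (0.96), and Slc26a11 and Slc8b1, which lets calcium leave mitochondria in exchange for sodium, were lower. Of 7 carriers of vitamins and choline, Slc44a1 was higher in both genotypes. Slc23a2, which imports vitamin C, measured 37.1 and 66.0 FPKM in WT (0.81) and 41 and 94.9 for the libraries labelled Sema6D-/- (1.19, or 0.45 after rescaling to a common total). The lysosomal carrier Slc46a3 measured 7.50 and 3.92 FPKM in WT (-0.79) and 6.05 and 1.52 for the libraries labelled Sema6D-/- (-1.49). Of 19 carriers of nucleotide sugars and other substrates of the Golgi and endoplasmic reticulum, 18 stayed within 2-fold in each genotype, with medians of -0.29 and -0.43, and Slc35e4 was lower (15.2 to 6.58 FPKM, and 10.5 to 4.67). The most abundant of this class was Slc35f6, counted in it by family number alone, at 52.9 and 36.7 FPKM for WT and 66.7 and 37.7 for the libraries labelled Sema6D-/-. The myo-inositol carrier Slc5a3 was lower with LPS in WT (3.69 to 1.03 FPKM), with -1.84 [-2.05, -1.63], against -1.46 [-1.79, -1.13] in the libraries labelled Sema6D-/- (1.5 to 0.545 FPKM). Slc22a4, a carrier of ergothioneine and organic cations, measured 5.83 and 3.32 FPKM for WT and 6.76 and 2.48 for the libraries labelled Sema6D-/-, where it was 2-fold lower (-1.16).

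Among 6 carboxylate and organic anion carriers, Slc16a6 was lower in both genotypes and Slc16a13 (4.93 to 1.73 FPKM) in the libraries labelled Sema6D-/-. The phosphate importer Slc20a1 measured 21.9 and 14.5 FPKM for WT and 12.7 and 12.9 for the libraries labelled Sema6D-/-. Both fatty acid carriers stayed within 2-fold, with Slc27a1, a fatty acid transport protein that also activates its substrate, at 69.0 and 47.9 FPKM for WT and 63.7 and 46.1 for the libraries labelled Sema6D-/-. Slc66a2, of unassigned substrate here, measured 13 and 9.86 FPKM for WT and 13.8 and 6.23 for the libraries labelled Sema6D-/-, where it was 2-fold lower (-1.03). The 3 members that are named after a carrier but encode none (Slc9a3r1, a scaffold protein, Slc4a1ap and Slc7a6os) all stayed within 2-fold, Slc9a3r1 between 35.9 and 51.9 FPKM.

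**Figure D4:**
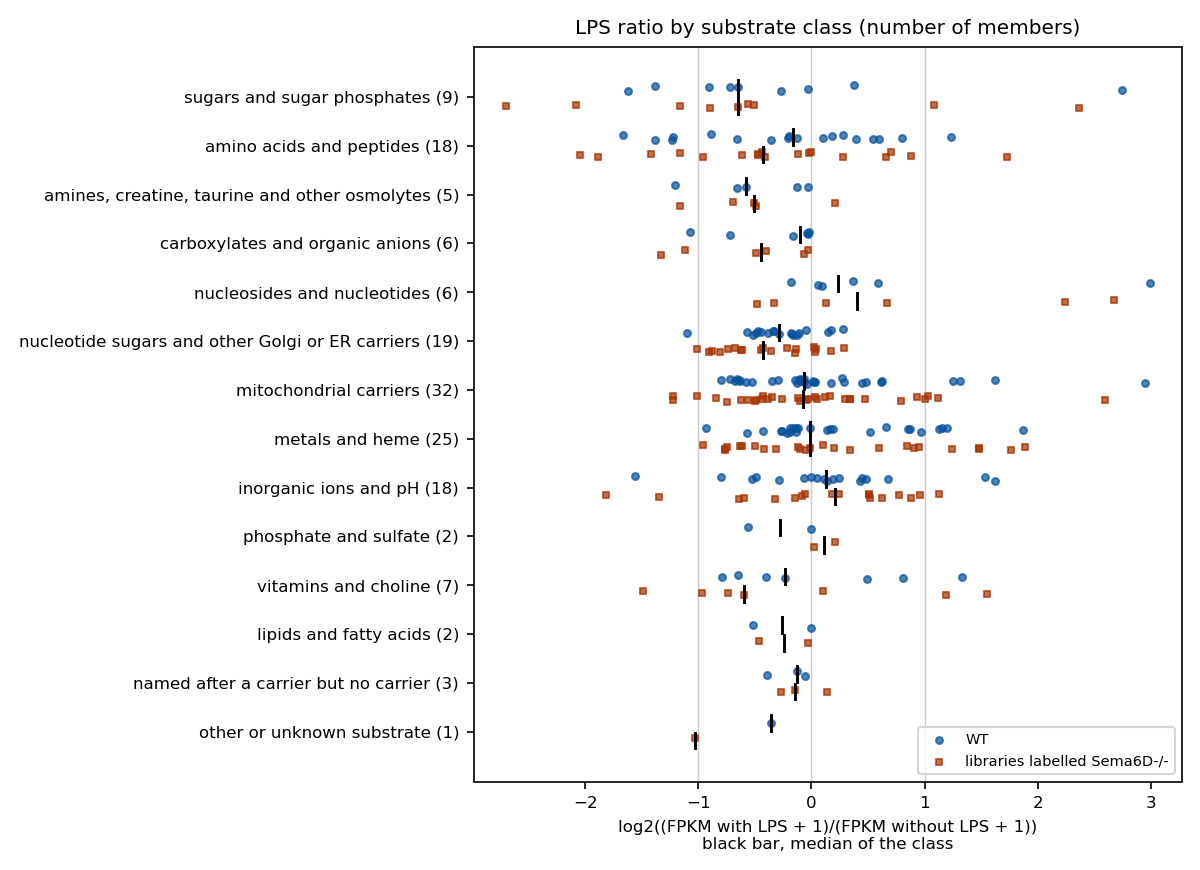
Log2 LPS ratio (1 FPKM added) of each member, by substrate class with the number of members, in WT (circles) and in the libraries labelled Sema6D-/- (squares), with black bars at class medians. Medians lie between -0.65 and 0.40 for every class of 2 or more members, and single carriers reach 2.99 and -2.70.

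Between genotypes few carriers passed 2-fold. Without LPS 3 members were at least 2-fold higher in the library labelled Sema6D-/- (1.96%, against 2.59% of all genes and 2.27% of protein-coding ones) and 2 lower (1.31%, against 2.16% and 1.69%). With LPS 3 were higher (1.96%, against 3.02% and 2.76%) and 6 lower (3.92%, against 3.09% and 2.68%). The medians were 0.05 and -0.04. After rescaling to a common total the split was 3 and 4 without LPS and 2 and 8 with LPS, and after centring 2 and 4, and 2 and 8. For these splits too, the share of all genes was not counted. Each of these genotype differences carries the sex difference and the neutrophil and macrophage marker differences given above.

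Slc2a6 was higher in both states, at 101 against 27.1 FPKM without LPS (1.90 [1.81, 1.98]) and 521 against 186 with LPS (1.48 [1.44, 1.52]), so that the unstimulated library labelled Sema6D-/- lay between the WT libraries without and with LPS. Its 2 transcripts had the same leading form in all 4 libraries. Among other carriers higher with LPS in WT the genotype ratios without LPS went both ways, and most were above 0. Both ratios divide by the WT library without LPS, so a low value there raises both. The share above 0 among all genes higher with LPS in WT was not counted. Slc39a14 had -0.32 [-0.45, -0.18], Slc15a3 -0.25 [-0.28, -0.22] and Slc49a4 -0.06 [-0.22, 0.10]. On the higher side, Slc25a37 had 1.05 [0.97, 1.14], Slc31a2 0.98 [0.89, 1.07], Slc25a22 0.93 [0.80, 1.05] and Slc25a12 0.72 [0.65, 0.78], and with LPS these last 4 had 0.32 to 0.57. Also above 0 without LPS were Slc31a1 (0.62 [0.56, 0.68]), Slc4a7 (0.56 [0.48, 0.64]) and Slc12a9 (0.56 [0.42, 0.70]). The rest were Slc28a2 (0.38 [0.22, 0.54]), Slc44a1 (0.25 [0.13, 0.37]) and Slc25a28 (0.19 [-0.00, 0.38]). Slc25a37 passed 2-fold with the added 1 at 1.00, and after centring (0.98) it did not. Slc12a7, which moves potassium and chloride out of cells, was lower, at 13.3 against 25.1 FPKM without LPS and 19.4 against 26 with LPS. Slc16a10, which carries aromatic amino acids, measured 58.7 against 42.1 FPKM without LPS and 109 against 61.6 with LPS.

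Lower levels in the libraries labelled Sema6D-/- were found for 3 of the 11 zinc importers at 2-fold in at least 1 state. With 1 FPKM added, 1 of the 11 passed 2-fold without LPS and 3 with LPS, beside 2.16% and 3.09% of all genes. Only Slc39a8 passed in both states, while Slc39a4 (-0.99) and Slc39a13 (-0.67) were short of it without LPS. The family was set apart after its values were seen. Slc39a8, which brings zinc and manganese into cells, measured 1.09 against 4.75 FPKM without LPS (-2.12 [-2.48, -1.77]) and 1.24 against 4.05 with LPS (-1.71 [-2.11, -1.31]). It reached the limit of 2 FPKM only in the WT libraries, so its lower calls are not independent of how members were chosen. Slc39a4, best known for zinc uptake in the intestine, measured 16.4 against 33.6 FPKM without LPS (-1.03 [-1.14, -0.92]) and 16.3 against 37.7 with LPS (-1.21 [-1.34, -1.08]). Slc39a13 measured 22.4 against 36.2 FPKM without LPS and 11 against 33.2 with LPS (-1.59 [-1.77, -1.42]). The remaining 8 members of family Slc39 had genotype ratios between -0.38 and 0.40. Slc9a9, a sodium/proton exchanger of endosomes, measured 11.5 against 23.9 FPKM without LPS and 13.8 against 27.4 with LPS (-1.05 [-1.16, -0.94] and -0.99 [-1.11, -0.87]). With LPS, Slc8b1 measured 12.3 against 27.7 FPKM and Slc16a6 2.41 against 6.31. Slc38a1, a carrier of glutamine and other neutral amino acids, measured 14.2 against 20 FPKM without LPS and 14.2 against 30.8 with LPS. Its 3 transcripts changed their leading form between libraries, as did those of Slc39a8 and Slc8b1. Over all 52 members with several transcripts, the leading one was the same in all 4 libraries for 37.

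**Figure D5:**
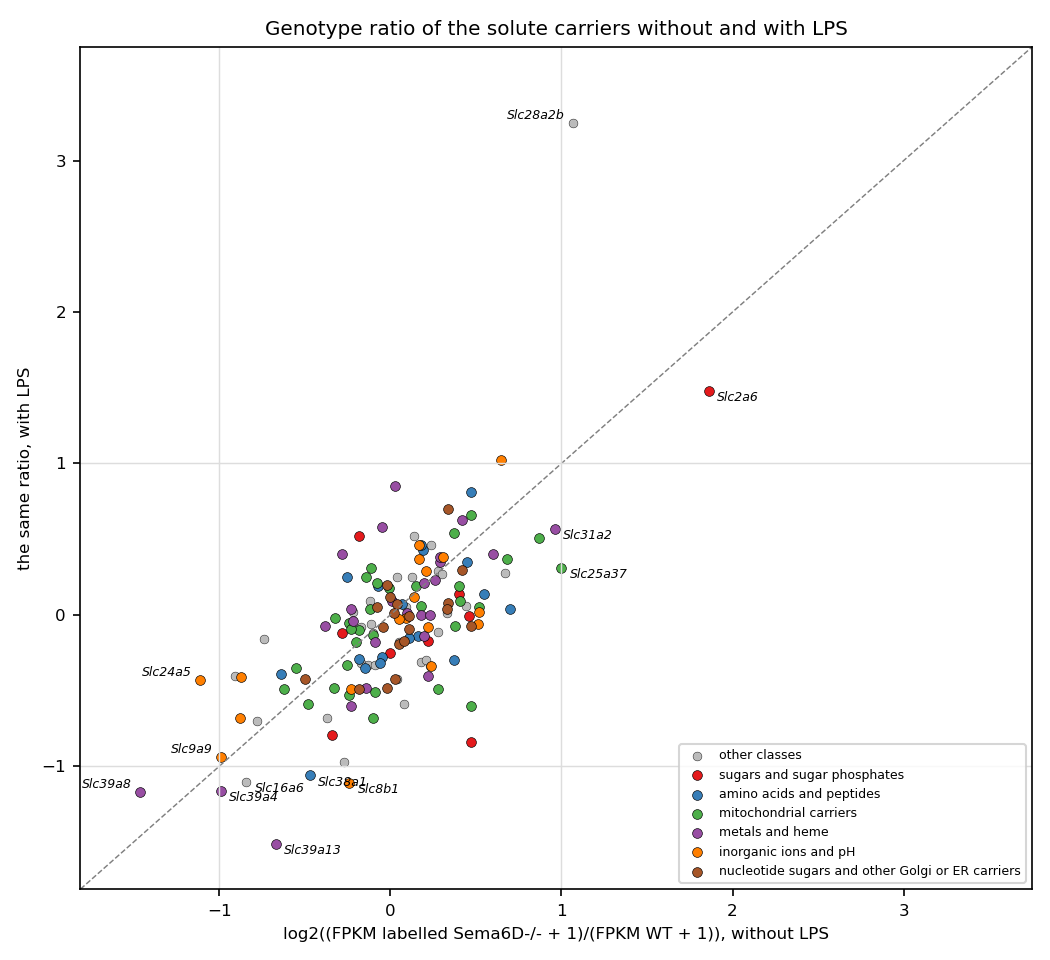
Log2 ratio of the level in the library labelled Sema6D-/- to that in WT (1 FPKM added), without LPS (x axis) and with LPS (y axis), 1 point per member, coloured by substrate class, with grey lines at 2-fold and a dashed line of equality. Slc2a6 and Slc28a2b lie above 2-fold on both axes, and Slc39a8 below it on both.

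The largest genotype ratio was that of Slc28a2b. This gene reached the limit of 2 FPKM only in the library labelled Sema6D-/- with LPS. Its higher calls are therefore not independent of how members were chosen. It was listed at 0 in WT without LPS and at 0.0419 FPKM (3 fragments) in WT with LPS, and measured 1.10 FPKM (87 fragments) and 8.90 FPKM (522 fragments) in the libraries labelled Sema6D-/-. The ratio with LPS was 7.73 [6.17, 10.01]. Its response to LPS in the libraries labelled Sema6D-/- was 3.02 [2.69, 3.36], close to that of Slc28a2 (2.82 [2.70, 2.95]). The transcripts of the 2 genes were 96.1% identical over 3738 aligned bases, so reads may have been split between them, and both values are uncertain. Their sum was 5.83 and 53.1 FPKM for WT and 8.67 and 62.4 FPKM for the libraries labelled Sema6D-/-, where Slc28a2b held 12.6% and 14.3% of it. The promoter windows printed above were unlike each other, with 52.5% identity over 278 aligned bases.

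Both genes lie on chromosome 2 near Sema6d. In the order of RefSeq genes on GRCm38.p6, 13 annotated genes stand between Slc28a2b and Sema6d, 15 between Slc28a2 and Sema6d, 6 between the zinc exporter Slc30a4 and Sema6d, and 5 on the other side between Sema6d and Slc24a5. Slc24a5, a potassium-dependent sodium/calcium exchanger known from pigment cells, had a lower unstimulated level under the Sema6D-/- label, at 1.14 against 3.62 FPKM (-1.67 [-2.15, -1.18]), and measured 2.27 against 3.41 with LPS (-0.58 [-1.04, -0.14]). Slc30a4 measured 2.71 against 2.03 FPKM without LPS and 5.95 against 4.46 with LPS, and Slc28a2 7.58 against 5.83 and 53.5 against 53.1. Of the 18 genes at the level limit within 25 places of Sema6d, 4 (22.2%) had a 2-fold genotype ratio in at least 1 state, against 820 (8.38%) of all 9787 genes. Whether position bears on these differences was not tested. Slc2a6 is on the same chromosome, with 1859 genes in between. The 8 X-linked members had genotype ratios of -0.62 to 0.14 without LPS and -0.49 to 0.12 with LPS.

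The difference of the LPS responses (libraries labelled Sema6D-/- minus WT) passed 2-fold for 3 members, 1 up (0.654%, against 1.89% of all genes and 1.39% of protein-coding ones) and 2 down (1.31%, against 1.32% and 0.802%). After rescaling to a common total the split was 1 and 4, with no share of all genes counted. The 1 up was Slc28a2b (2.18), whose WT levels at or near 0 make that number depend on the added 1. It is a member only through its level in the library labelled Sema6D-/- with LPS. Lower were Slc45a4 (-1.31), which with LPS measured 1.17 against 2.88 FPKM, and Slc25a33 (-1.07). The next in size were Slc8b1 (-0.86), Slc39a13 (-0.84), Slc25a26 (-0.77) and Slc46a3 (-0.70) on the lower side. Slc30a6 (0.82), Slc37a3 (0.70), Slc39a14 (0.68) and Slc24a5 (0.68) followed on the higher side. For Slc8b1 the levels were 39.2 and 27.7 FPKM for WT and 33 and 12.3 for the libraries labelled Sema6D-/-, the lowest of the 4.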

How the data were processed

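The 4 deposited tables, 1 a library, list an FPKM for each RefSeq transcript. Cuffnorm 2.2.1, TopHat2 2.0.13, SAMtools 0.1.19 and Bowtie2 2.2.3 are the tools and mm9 is the build that the submitters' processing notes name for the authors' FPKM. Their order, options, annotation and scaling between libraries are not given in the sources used here. No file header names the unit, which was read from the values and from Cuffnorm. The titles' "non" was taken to mean unstimulated, although LPS stands in the treatment field of all 4 samples.

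Names for 34163 of 34487 transcripts came from RefSeq and for 187 from GENCODE vM21 metadata, and 137 had none. Transcripts were summed to 24235 genes. Levels in FPKM of a symbol with several transcripts rest on how the authors' tools split reads among them.

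FPKM values of low transcripts, multiplied by effective length, fell within 0.1 of whole multiples of 1 step for 69.3 to 70.8% of values (20.0% by chance), which gave the fragments behind each value. The fitted scales were 30.98 and 20.15 M fragments for WT without and with LPS. For the libraries labelled Sema6D-/- they were 22.47 and 16.57 M. Estimated totals in the same order were 23.6, 22.2, 17.3 and 21.5 M, so the scale was not the estimated total of each library. From the fragments behind each value, exact (Clopper-Pearson) 95% intervals of ratios were computed for 151 members. They cover counting error only. The ratio, count and interval steps were tested on simulated data with the same length for every gene and a known depth. The step from FPKM to fragments and the summing of transcripts were not simulated.

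Ratios were log2((FPKM + 1)/(FPKM + 1)), with a size rule of 2-fold. The background was every gene that passed the members' level limit. Named genes were the 8 highest and 8 lowest per comparison at 5 FPKM or more, the most abundant of each class, members of families that moved both ways, those 2-fold apart in both genotype comparisons and the 3 just inside and 3 just outside the limit. The 2-fold members of each class and relatives beside them were named after their values were seen, as were the genes near Sema6d. Members, classes and lists were chosen with earlier results of these data known. Slc4a1ap and Slc7a6os were set apart as no carriers after values were seen. Slc25a17 and Slc25a46, which are not in the inner mitochondrial membrane, were counted with their family. Slc35f6 and Slc49a4 were also placed by family number, and what they carry was not checked. The values of 1 member that enters the counts are not reported here. Python 3.11.15, pandas 2.3.3 and scipy 1.17.1 were used.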

Additional observations from a re-analysis of the deposited data

Results flagged for a closer look

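Slc6a6, the taurine carrier, moved in opposite directions with LPS in the genotypes by more than counting error, from 265 to 259.9 FPKM in WT (-0.03 [-0.05, -0.01]) and from 227 to 263 FPKM in the libraries labelled Sema6D-/- (0.21 [0.19, 0.23]). The difference of the responses was 0.24 and was not tested, since each genotype has 1 library per state, and it is far below 2-fold. It also depended on scaling, since after rescaling to a common total both genotypes had lower levels with LPS (-0.56 for WT, -0.54 for the libraries labelled Sema6D-/-), with a difference of 0.02.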

How the results depend on the processing

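No paired analysis was possible because each group is 1 library and no test was run. The 280 ratios of named members were retaken with 0.1 added in place of 1, rescaled to a common total, or centred on the median. None of at least 2-fold changed sign, which says little. The added value cannot turn the sign of a ratio of 2 libraries, and the largest shift of the median gene was -0.72. Many moved in size. Under rescaling 101 moved without a call gained or lost, 16 lost their 2-fold call and 20 gained one, and under centring these numbers were 47, 6 and 7. Of the counts of members higher or lower, those with LPS depended most on scaling. Rescaled to a common total, they were 7 higher and 34 lower for WT, and 6 and 64 for the libraries labelled Sema6D-/-, with 4 lower for genotype without LPS and 4 for the difference of responses. Centring gave 4 lower for genotype without LPS. With 0.1 added that count was 6, and 2 members had a higher difference of responses. With no filter that last count was also 2. A limit of 5 FPKM left 121 members, with 0 lower for genotype without LPS and 1 lower for the difference. At 1.5-fold the counts higher and lower were 25 and 27 with LPS for WT, 31 and 44 with LPS for the other genotype, 10 and 13 for genotype without LPS, 8 and 18 with LPS, and 7 and 12 for the difference. The 101 members with 1 transcript, a smaller set, gave 9 and 6, and 9 and 11 for LPS. They gave 1 lower for genotype without LPS, 1 and 1 with LPS, and 1 lower for the difference. In alternatives chosen after seeing the data, adding the 15 excepted symbols gave 4 lower for genotype without LPS and 3 higher for the difference, and leaving out the 3 that are no carriers moved no count by over 1.5 times. No share of all genes was counted beside any of these alternative counts. Depth limits the lowest members: Slc25a35, nearest the limit, rests on 29 to 75 fragments a library.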
